A study of Drosophila melanogaster with 3 samples.

Results

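This report follows 7 Drosophila melanogaster genes of mitochondrial dynamics and mitophagy, Pink1, park, Marf, Opa1, Drp1, Miro and Letm1, through a map of where the promoter factor M1BP (Motif 1 binding protein, also CG9797) sits in embryos. They were taken by name, 7 of the 13945 protein-coding genes on the 6 main chromosome arms, and all 7 were matched. The assay was chromatin immunoprecipitation with sequencing (ChIP-seq) on sonicated chromatin of whole embryos of mixed sex aged 0 to 24 h. The 1 group held 3 biological replicates of 1 line that stably expresses M1BP with a green fluorescent protein (GFP) at its C-terminus. The labels name no driver for the transgene and do not say whether the endogenous protein was still made. They also conflict: a description line reads as an input control, while the assay title and antibody field (CG9797) describe an immunoprecipitation, which is how the libraries are read here. Whole embryos mix tissues and ages, so M1BP at a gene in few cells and weaker binding in many cannot be told apart.

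The authors deposited 5 lists of peaks. There is 1 relaxed list for each replicate and 1 for the pooled replicates, each cut at 30000 entries and so holding background too, and a thresholded list of 4598 entries that passed a filter on reproducibility between replicates (irreproducible discovery rate). The thresholded entries are the 4598 strongest of the pooled list, so both lists give them the same rank. An entry has an interval, a summit (its highest point), a signal value from the authors' peak caller and a q-value. Signal values have no stated scale and are compared here only inside a list, and rank 1 is the highest signal value of a list. A low rank number in 1 replicate can be set beside that of another because the replicate lists are equally long. Read depth is unknown, and no control library was analysed here. An entry was assigned to a gene when its summit lay within 1000 bp of any annotated start site of that gene.

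Mitochondria are kept in a network by fusion and fission. Marf, the mitofusin, joins outer membranes and Opa1 joins inner membranes, whereas the dynamin-related GTPase Drp1 divides the organelle. Miro, an outer membrane GTPase, couples mitochondria to microtubule motors, and Letm1 is an inner membrane protein of cation homeostasis. When a mitochondrion is damaged, the kinase Pink1 collects on its surface and activates park, a ubiquitin ligase whose substrates include the mitofusin, and the organelle is marked for mitophagy. In flies, loss of Pink1 or park is known for its effects on flight muscle, male fertility and dopaminergic neurons. M1BP itself has zinc fingers and recognises Motif 1, an element of core promoters.

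The start sites of 4 of these promoters are shown: Pink1, park and Drp1 for their motif matches, and Marf as a stronger entry with no match. Sequences are from the NCBI Release 6 genome, in gene orientation, 5′ to 3′, each with at most 30 bases of annotated exon. Capitals mark Motif 1 in Pink1, the E-box CAGCTG in park and the GAGA element in Drp1, which reads GAGAG on the other strand. No searched motif was found in the Marf stretch.
Pink1, chrX:6683721-6683846, plus strand: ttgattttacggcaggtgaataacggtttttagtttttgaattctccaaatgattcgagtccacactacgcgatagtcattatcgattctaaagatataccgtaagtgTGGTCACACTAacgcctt
Marf, chrX:6365829-6365978, plus strand: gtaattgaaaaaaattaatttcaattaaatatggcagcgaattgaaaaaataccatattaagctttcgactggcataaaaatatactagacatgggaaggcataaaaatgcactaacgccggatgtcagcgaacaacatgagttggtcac
Drp1, chr2L:2585401-2585550, minus strand: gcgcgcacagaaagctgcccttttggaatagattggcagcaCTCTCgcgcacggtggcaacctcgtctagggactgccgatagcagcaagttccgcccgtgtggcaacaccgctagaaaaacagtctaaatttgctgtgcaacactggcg
park, chr3L:21196764-21196799, minus strand: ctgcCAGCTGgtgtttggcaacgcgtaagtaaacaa

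All 7 genes carried an entry of the thresholded list. Across the protein-coding genes 36.7% met that rule. At a distance of 250 bp the count was again 7 of 7, where 31.1% of genes met it. The 7 genes were chosen with earlier results of these data known, so these shares are given as a description. The entries were of moderate strength rather than strong. Their median signal value was 463, against 685 for the 5114 genes with a thresholded entry, and 2 of the 7, Opa1 and Marf, stood above that median. When only entries at or above the median of the thresholded list (538) were kept, 3 of the 7 remained (Opa1, Marf and Drp1), where 22.8% of genes met the rule. In the thresholded list the order was Opa1, Marf, Drp1, Pink1, Miro, Letm1 and park. The positions of Pink1, Miro and Letm1 in it are close, with ranks from 2687 to 2778, and no replicate places these 3 in that order. The strongest of the 7, Opa1, had a higher signal value than 68.0% of the genes with a thresholded entry, and the weakest, park, than 5.12%. The q-values do not separate them: each of the 9 thresholded entries at these genes sits at the ceiling of the list, a −log10 q-value of 3.95.

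**Figure D1:**
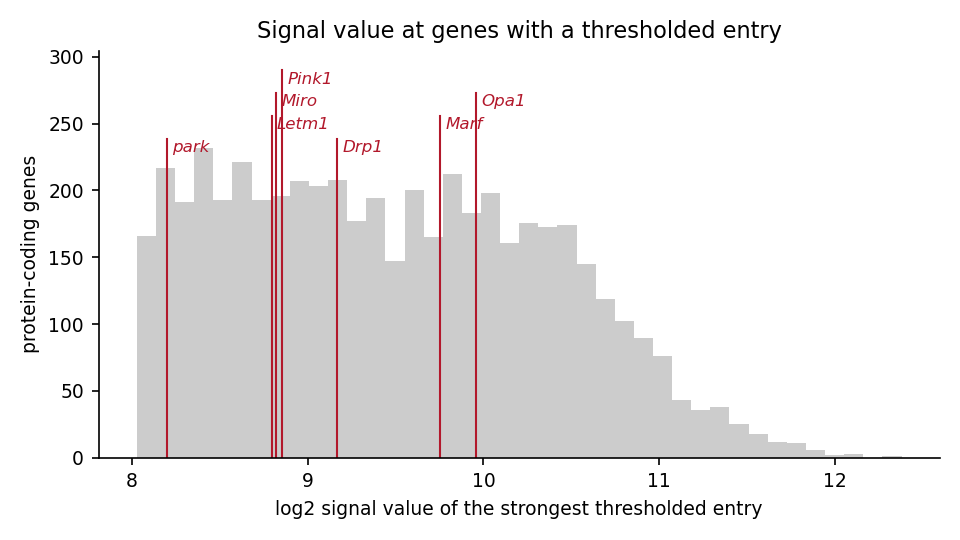
Histogram of the log2 signal value of the strongest thresholded entry over the 5114 protein-coding genes that have one within 1000 bp of a start site; red lines mark the 7 genes. Opa1 and Marf lie above the median signal value of 685 and the other 5 below it, with park near the lower end.

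Between replicates the 7 genes were not equally steady. Opa1, Marf, Drp1, Miro and Letm1 had an entry among the 4598 strongest of every replicate, a count of 5 of 7, where 27.2% of all genes met that rule and 73.9% of the genes with a thresholded entry did. Pink1 met it in 2 replicates and park in 1. The highest rank number of a gene divided by its lowest over the 3 replicates was 1.14 for Miro, 1.37 for Letm1 and 2.17 for Pink1. It was 3.03 for Marf, 3.37 for Drp1, 3.62 for Opa1 and 8.18 for park. Over the 4831 genes with a thresholded entry and an entry in all 3 replicates the median of this ratio was 2.02 and the upper quartile 3.05. Thus 3 of the 7, Drp1, Opa1 and park, varied more than that quartile. The ratio can compare different summits. The strongest summits of the replicates spanned 3 bp at park, 116 bp at Drp1, 132 bp at Pink1 and 143 bp at Opa1. They spanned 167 bp at Miro, 234 bp at Marf and 285 bp at Letm1. In replicate 2 the strongest entry of Letm1 (rank 3192) had a summit 245 bp inside the gene, and the entry 45 bp inside ranked 22015.

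**Figure D2:**
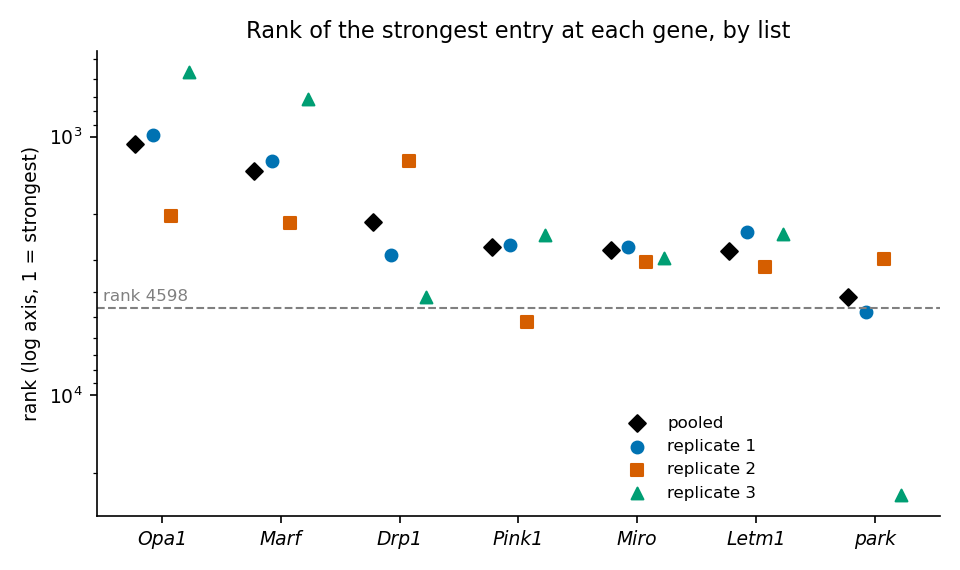
Rank of the strongest entry within 1000 bp of a start site in the pooled list and in each replicate (log axis, 1 at the top; dashed line at rank 4598, the length of the thresholded list). Miro and Letm1 are tightest in rank, Drp1 and park are best placed in replicate 2, and park falls to rank 24326 in replicate 3. At Letm1 the rank in replicate 2 is that of a summit 245 bp inside the gene.

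Opa1 lies on 2R at 14230611 to 14235449 (minus strand), with 1 start site at 14235449 for its 5 transcripts. Its strongest thresholded entry, at 14235373 to 14235639, had a signal value of 996 and rank 1071, and its summit lay 38 bp upstream of the start site. By replicate, it ranked 984 in replicate 1 with a signal value of 574, 2034 in replicate 2 with 162, and 562 in replicate 3 with 292. Replicate 3 was thus the highest and replicate 2 the lowest. A second thresholded entry, 247 bp upstream, had a signal value of 305 and rank 3998. Replicate 1 listed a second entry 303 bp upstream at rank 12930 and replicate 3 at 290 bp and rank 7425, whereas replicate 2 listed none. The strongest summits of replicates 1 and 3 lay 91 and 89 bp upstream, so the second ones shifted along with them. Whether the second entry marks a separate site was not tested.

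Marf lies on X at 6365949 to 6370924 (plus strand), with 1 start site for its 3 transcripts. Its thresholded entry, at 6365620 to 6366075, had a signal value of 862, rank 1363 and a summit 19 bp upstream, inside the stretch printed above. The strongest entry ranked 1245 in replicate 1 with a signal value of 505, 2170 in replicate 2 with 153, and 716 in replicate 3 with 268, the same order of replicates as at Opa1. A second summit lay 183 bp inside the gene in the pooled list, with a signal value of 253 and rank 4732, just below the lowest thresholded signal value of 261. Second summits were listed 155 bp inside at rank 15831 in replicate 1 and 84 bp inside at rank 2298 in replicate 3. The strongest summits of these replicates lay 44 and 118 bp upstream, so the second ones shifted along with them. The opposite gene swa (swallow, which acts in localizing bicoid mRNA in the egg) starts 241 bp away, and the Marf summit lay 222 bp upstream of its start site, so the entry meets the distance rule for swa too.

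Drp1 lies on 2L at 2581281 to 2585430 (minus strand), with 1 start site for its 2 transcripts. Its thresholded entry, at 2585207 to 2585722, had a signal value of 575, rank 2138 and a summit 35 bp upstream. Drp1 ranked 2870 in replicate 1 with a signal value of 244, 1247 in replicate 2 with 241, and 4197 in replicate 3 with 62.1. Here replicate 2 was the highest and replicate 3 the lowest, the reverse of Opa1 and Marf. Weak entries lay about the same distance upstream in 3 lists, at 885 bp in the pooled list (rank 25923), at 800 bp in replicate 2 (23640) and at 888 bp in replicate 3 (11554).

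Miro lies on 3R at 24034362 to 24038847 (minus strand) and has 2 start sites. The site at 24037730 serves 3 of its 4 transcripts and the one at 24038847 serves 1. The strongest thresholded entry, at 24037674 to 24037866, had a signal value of 452, rank 2741 and a summit 37 bp upstream of the first of these. Miro ranked 2682 in replicate 1 with a signal value of 261, 3066 in replicate 2 with 111, and 2957 in replicate 3 with 91.3. The ranks thus barely differed, although the summits spanned 167 bp. A second thresholded entry lay 282 bp upstream (310, rank 3937). Second entries lay at 286 bp and rank 3885 in replicate 1, at 203 bp and rank 14075 in replicate 2, and at 377 bp and rank 6177 in replicate 3. The strongest summits there lay 81, 1 and 168 bp upstream, so between replicates both moved together. The summit of the second thresholded entry lies in an intron of Miro, between the start site at 24037730 and that of spas (spastin, a microtubule-severing enzyme). The spas start site, inside the annotated Miro gene, is 203 bp from that second summit and 485 bp from 24037730. A further summit 485 bp upstream of Miro fell on the start site of spas at rank 18752 in the pooled list and 12805 in replicate 1. The 2 entries whose nearest start site is the more upstream one were both from replicate 2, 530 bp before it at rank 25940 and 433 bp after it at rank 29848.

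Letm1 lies on 2R at 24509508 to 24515320 (minus strand). Of its 3 transcripts, 2 start at 24515320 and 1 at 24514997. The thresholded entry, at 24515092 to 24515607, had a signal value of 444, rank 2778 and a summit 30 bp upstream of 24515320. Letm1 ranked 2336 in replicate 1 with a signal value of 299, 3192 in replicate 2 with 107, and 2390 in replicate 3 with 115. In replicates 1 and 3 its summit lay 40 and 32 bp upstream of the same site, whereas in replicate 2 it lay 245 bp inside the gene, which is 78 bp upstream of the other start site. Replicate 2 also listed a weaker entry 45 bp inside the gene (rank 22015). Further entries lay 241 bp upstream in replicate 1 (rank 8877) and, far upstream, at 878 bp in the pooled list (28032) and 848 bp in replicate 2 (10802). The opposite gene Ir60b, an ionotropic receptor gene, starts 365 bp away, and the thresholded summit was 335 bp upstream of it.

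Pink1 lies on X at 6683798 to 6687302 (plus strand) and has 3 start sites, at 6683798, 6683841 and 6684355, which serve 1, 7 and 1 of its 9 transcripts. The thresholded entry, at 6683585 to 6684100, had a signal value of 463, rank 2687 and a summit 2 bp inside the site used by 7 transcripts, beside the Motif 1 match printed in capitals above. The strongest entry ranked 2632 in replicate 1 with a signal value of 265, 5222 in replicate 2 with 70.5, and 2410 in replicate 3 with 114. Replicate 2 was the lowest, and its −log10 q-value there was 0.90. A second summit lay 201 bp inside in the pooled list (rank 6422), at 200 bp in replicate 1 (6104) and at 196 bp in replicate 3 (27912). Around the most downstream start site, the pooled list had an entry 369 bp inside it (18938) and replicate 2 had 1 at 222 bp (20326).

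At park, the ubiquitin ligase gene on 3L at 21194754 to 21196853 (minus strand), the signal was the weakest of the 7. It has 2 transcripts that start at 21196769 and 21196853, and the start of the opposite gene Targ3 lies between them, 62 bp from the first and 22 bp from the second. The thresholded entry, at 21196519 to 21197034, had a signal value of 294, rank 4166 and a summit 8 bp upstream of 21196769 and 54 bp upstream of the Targ3 start site. The strongest entry ranked 4793 in replicate 1 with a signal value of 144, 2974 in replicate 2 with 114, and 24326 in replicate 3 with 24.8, where the lowest signal value of the list is 22.3. Replicate 3 thus stood far below the others, yet its summit lay within 3 bp of theirs. A second entry inside the coding exons lay 847 bp from the first start site in the pooled list (rank 7962), at 839 bp in replicate 1 (29986) and at 815 bp in replicate 2 (8908). A pooled entry 818 bp upstream of the second start site ranked 21614, and its summit was 499 bp from the start site of Targ1.

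The 7 thresholded summits lay between 2 and 38 bp from a start site, with a median of 30 bp. Among all genes with a thresholded entry the median distance was 78 bp and 37.3% lay within 50 bp, a limit chosen after the values were seen. All but that of Pink1 were upstream of their nearest start site, and 4 (Marf, Opa1, Drp1 and Letm1) lay outside their gene, while those of park and Miro lay in the annotated 5′ UTR of a transcript with a more upstream start site. Summits of the single replicates were spread more widely. Relative to the start site nearest the thresholded summit, they lay at −42.7 ± 82.0 bp at Opa1, −15.3 ± 120 bp at Marf, −79 ± 61.6 bp at Drp1 and −83.3 ± 83.5 bp at Miro (SD, n = 3). They lay at 57.7 ± 162 bp at Letm1, 22.7 ± 69.9 bp at Pink1 and −7 ± 1.73 bp at park. At 6 of the 7, all but park, the summit of replicate 2 was the farthest downstream of the 3, at Drp1 by little (−33 bp against −55 bp in replicate 1). How often this holds over all genes was not counted, so it is not shown to be particular to these genes. It lay 52 bp inside Opa1, 116 bp inside Marf, 102 bp inside Pink1 and 245 bp inside Letm1. In the pooled list 4 of the 7 genes had a further summit 199 to 245 bp from the strongest (Pink1, Marf, Opa1 and Miro). The share of all genes with such a summit was not counted, so such summits are not shown to be particular to these genes. Whether they mark separate sites was not tested. In all, the 5 lists held 67 entries at these genes, from 8 at Marf and Drp1 to 14 at Miro: 9 in the thresholded list, 17 in the pooled list and 14, 15 and 12 in replicates 1, 2 and 3. The relaxed lists had an entry at 63.3% to 66.2% of all genes, so their weak entries are common. The entries nearest to the limit of 1000 bp were that of replicate 3 at 888 bp from Drp1 inside it and, outside it, that of the same replicate at 1006 bp from park (rank 11376).

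**Figure D3:**
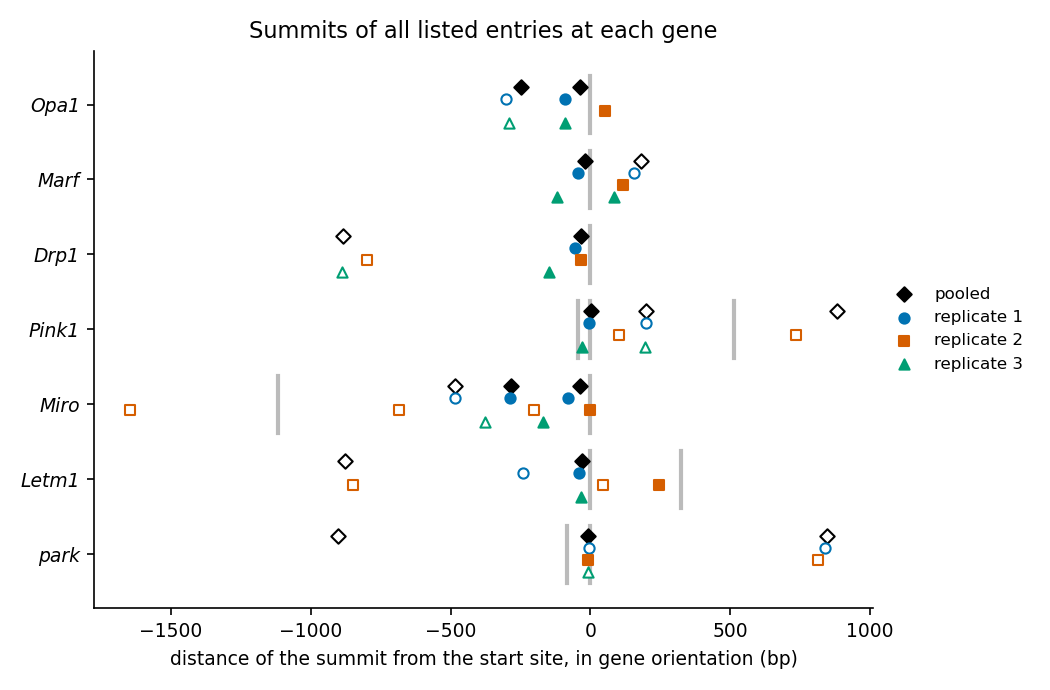
Summits of all entries listed within 1000 bp of any start site, by distance from the start site nearest the thresholded summit (bp, negative is upstream); grey bars are annotated start sites, filled markers are entries within the 4598 strongest of their list, open markers are weaker. Every gene has filled markers near its start site. Further filled markers lie about 282 bp upstream of Miro, 247 bp upstream of Opa1 and 84 bp inside Marf. The replicate 2 marker 245 bp inside Letm1 is also filled. The strongest summit of replicate 2 lies farther inside Opa1, Marf, Pink1 and Letm1 than the strongest summits of replicates 1 and 3.

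Replicate 2 departed from replicates 1 and 3 in opposite directions at different members. Its rank divided by the geometric mean of the other 2 ranks was 2.74 at Opa1, 2.30 at Marf, 2.07 at Pink1, 1.35 at Letm1 and 1.09 at Miro, but 0.359 at Drp1 and 0.275 at park. The base composition within 100 bp of the summit moved with it. GC content was 29.4% at Marf, 33.8% at Pink1 and at Opa1, 36.3% at Letm1, 39.3% at park, 40.3% at Miro and 50.2% at Drp1, with a median of 38.8% over the thresholded summits. Over the 4831 genes, which share libraries and often entries, Spearman's rho of this ratio with GC content was −0.74, given as a description. The order is not strict among the 7, since park has a lower GC content than Miro and Drp1 and the lowest ratio. At park, however, the ratio also carries the weak entry of replicate 3. The ranks there were 4793, 2974 and 24326 in replicates 1, 2 and 3. GC content was taken at the thresholded summit, and some replicate summits lay outside that window. Among them were those of replicate 2 at Letm1 (245 bp inside) and at Marf (116 bp inside). The replicate 2 entry 45 bp inside Letm1 ranked 22015, so the Letm1 ratio and its GC content describe different places. The part of base composition in the order of the 7 genes was not tested.

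**Figure D4:**
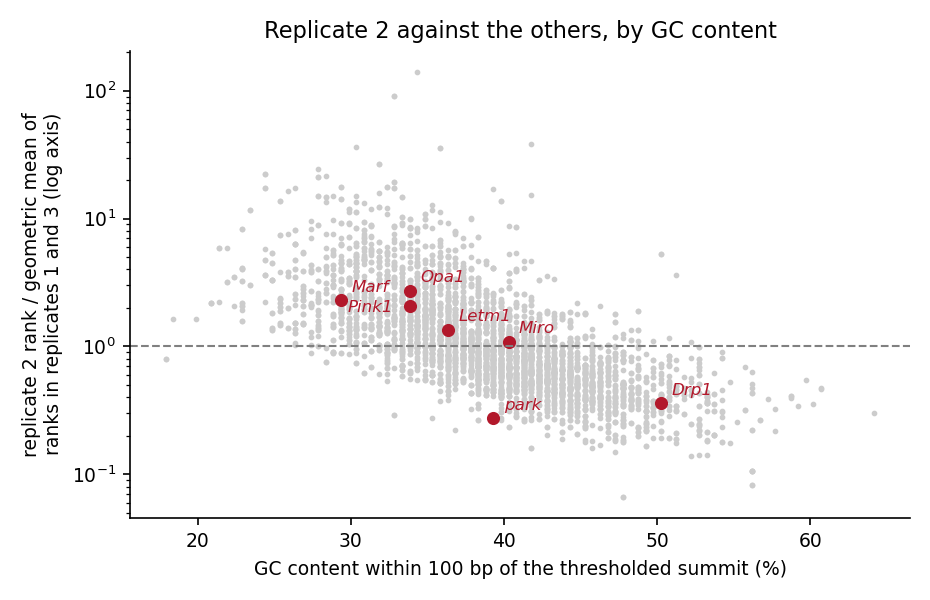
Rank in replicate 2 divided by the geometric mean of the ranks in replicates 1 and 3 (log axis), against the GC content within 100 bp of the thresholded summit, for 4831 genes (grey) and the 7 genes (red). Marf, Opa1 and Pink1 are low in GC and placed worse in replicate 2, and Drp1 is high in GC and placed better. The lowest ratio of the 7, 0.275, is that of park, whose GC content of 39.3% is near the median of 38.8%. The ratio of park also carries its rank of 24326 in replicate 3. The ratio of Letm1 uses a replicate 2 summit 245 bp inside the gene, outside the window of its GC content.

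Motifs were searched on both strands within 100 bp of the strongest thresholded summit. Motif 1 matched exactly at 1 of the 7, Pink1, where it lies on the gene's own strand centred 7 bp before the start site. It matched at 10.7% of thresholded summits and at 3.94% of promoters, taken as 100 bp on each side of the most upstream start site of every gene. Its core GGTCACAC, which is part of Motif 1, also occurred at Opa1, on the gene's own strand centred 19 bp inside the start site, with 1 mismatch to the whole motif. The core was present at 18.3% of summits and 6.76% of promoters, and Motif 1 with up to 1 mismatch at 28.1% and 10.6%, again at Pink1 and Opa1 among the 7. The DNA replication-related element TATCGATA was at none of the 7 and at 10.9% of summits and 7.84% of promoters. The E-box CAGCTG was at park (14.9% and 13.8%), TATAAA at Pink1 and park (27.9% and 29.2%) and GAGAG at Drp1 and Letm1 (18.6% and 22.5%). The windows of Marf and Miro held none of these. A match is a string of letters, and its absence says nothing of the factor. In strength, Opa1 with the core ranked first of the 7. Pink1 with the exact match ranked below Marf and Drp1 and above Miro, Letm1 and park, none of which has the motif or its core. Any part of the motif in this order was not tested.

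A list of other genes of mitochondrial dynamics and quality control was also chosen with earlier results of these data known. It held 45 symbols, of which 44 were matched. Of these, 32 had a thresholded entry (72.7%) where 36.7% of all genes did, and 24 were among the strongest of all 3 replicates (54.5%) where 27.2% of all genes were. Their median signal value was 616, from 262 to 2615, and their summits lay within 50 bp of a start site at 15 genes. The strongest was the ubiquitin-specific protease gene Usp15-31 (signal value 2615, rank 57, and ranks 53, 150 and 25 in replicates 1, 2 and 3). Next came Chchd3, a component of the complex that shapes cristae (1458, rank 488, replicates 743, 374 and 700). It was followed by genes of protein import, ttm50 (1402, rank 544), Tom40, the outer membrane pore (1382, rank 565), and Tom7 (1309, rank 637). The Tom7 summit lay 603 bp inside from its start site. Entries shared with genes outside the list were not set apart. The gene babo has the same signal value as Tom7, and CG2712 the same as ttm50. The first 3 in the alphabet without a thresholded entry were DJ-1alpha, dj-1beta and Fis1, with pooled ranks of 15027, 10665 and 5647.

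Some partners of the 7 genes were singled out after their values were seen. Kinesin heavy chain, Khc, the motor that Miro engages, ranked 692 (signal value 1268, replicates 818, 524 and 888). The adaptor milt (Milton), which joins the motor to Miro, ranked 3999 (305, replicates 4436, 1675 and 6361), so it is near the lower end like park. Mul1, a ubiquitin ligase of the outer membrane, ranked 996 (1044), and rho-7, an inner membrane rhomboid protease, ranked 1038 (1023), both stronger than Pink1. The fly has a second mitofusin gene, fzo, known from the male germline. It had no thresholded or pooled entry and was listed by replicate 2 alone at rank 18201, whereas Marf ranked 1363 in the thresholded list. Gene activity was not measured here.

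**Figure D5:**
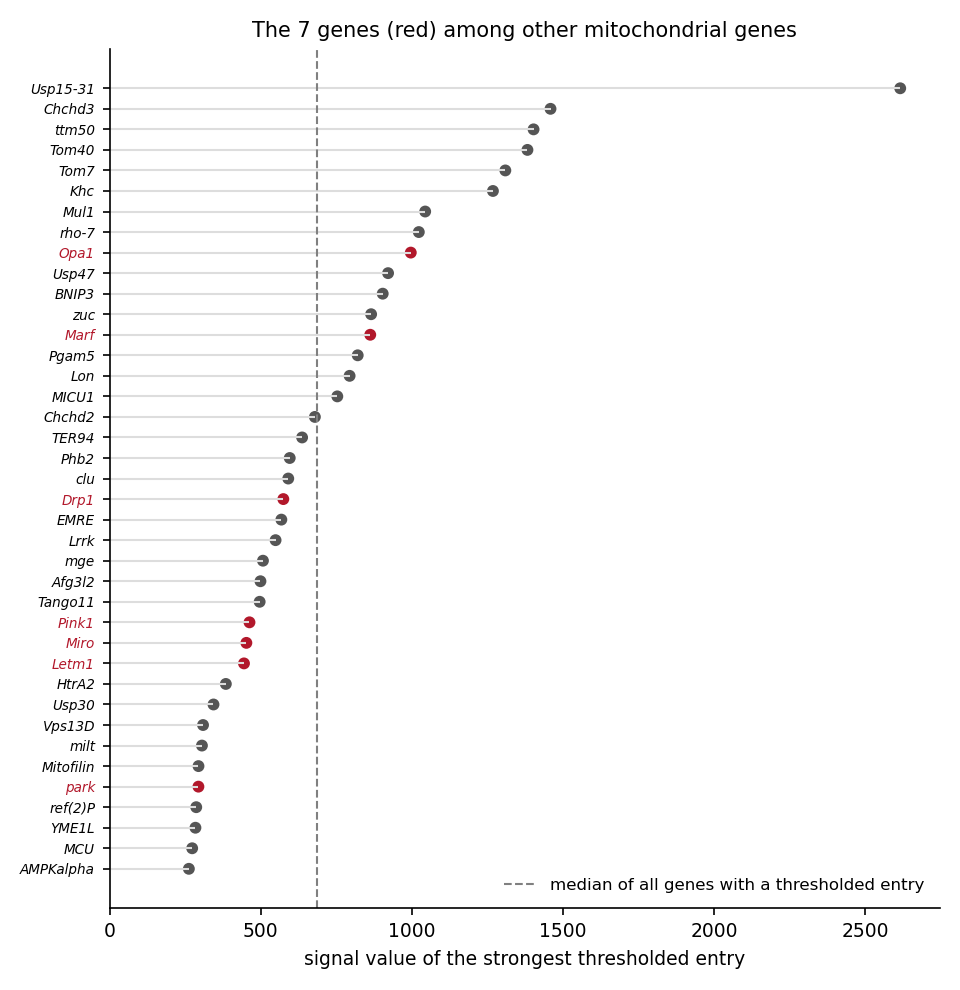
Signal value of the strongest thresholded entry within 1000 bp of a start site for the 7 genes (red) and the 32 other mitochondrial genes that have one (dark grey); the dashed line is the median of 685 over all genes with a thresholded entry. Opa1 and Marf lie in the upper part with Mul1 and rho-7, and park lies among the lowest beside Mitofilin and ref(2)P.

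The genes whose replicate ranks were most like those of Opa1, out of 6598 with an entry in all 3 replicates, were Dpck, cal1 and stau. The measure was the largest absolute difference in log10 rank over the 3 replicates, and it was 0.027 for Dpck, 0.061 for cal1 and 0.065 for stau. Dpck ranked 925, 2156 and 550 in replicates 1, 2 and 3, cal1, a centromere assembly gene, ranked 1120, 1769 and 647, and stau, which encodes the RNA-binding protein Staufen, ranked 1129, 1859 and 653. All 3 had replicate 3 highest and replicate 2 lowest, as Opa1 did.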

How the data were processed

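ChIP-seq peak lists of 3 replicates of 1 group were used, with replicate numbers as in the labels. Per the deposited notes, a replicate list came from its own alignment with 1 control file, the pooled list from the 3 alignments with the same file, and the thresholded list from these 4 lists. The deposited signal value (a score, scale not stated) and the deposited −log10 q-value were made by the authors' peak caller. Aligner, caller, tool versions and reproducibility threshold were not given in the sources used here. Coordinates are those of dm6. Start sites came from the Ensembl release 115 annotation (BDGP6.54) and sequence from the NCBI Release 6 genome, which share its coordinates: 99.8% of 30593 annotated start codons read ATG. Positions count from 1. Summits are the interval start plus the offset, ranks follow the signal value, and the window code was checked on simulated summits. The files hold no read counts, so depth is unknown and no interval is given. With 1 group there was no test between conditions. The members and lists were chosen with earlier results of these data known. Genes named are the 7, genes starting within 1000 bp of their listed summits, the 5 strongest and the first 3 (alphabetically) without a thresholded entry of the list of other mitochondrial genes, and the 3 most like Opa1. Khc, milt, Mul1, rho-7, fzo, Mitofilin, ref(2)P, babo and CG2712 were added after their values were seen, as were the genes under other observations. Of the list, 3 symbols were matched in an older or differently cased form and Fundc1 was unmatched. Alternatives varied the distance, threshold, start sites, replicates and motif window. Sequences of some members were not used here. Python 3.11.15, numpy 2.4.6, pandas 2.3.3 and matplotlib 3.10.9 were used.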

Additional observations from a re-analysis of the deposited data

How the results depend on the processing

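The count of 7 members with a thresholded entry was also 7 with summits within 250 or 500 bp, with distances taken from the interval edge and with the most upstream start site only. Keeping entries at or above the median signal value left 3 members and 3 of the 9 thresholded entries. Requiring a summit among the 4598 strongest of both remaining replicates when 1 was left out gave 5 to 6 members, for this count and for the count of 5 in all 3 replicates: 6 without replicate 2, where Pink1 was added, and 5 without replicate 1 or 3. Of all genes, 28.3%, 32.4% and 29.9% met this without replicates 1, 2 and 3. Counting neighbouring summits once gave 7 entries. Of the members, 2 were in every replicate when 0.5 of that number of entries was kept, where 16.6% of all genes were, and 7 had some entry in all 3 replicate lists, where 47.3% of all genes had. Ranks were identical at 250 bp. A motif of any kind was matched at 5 members within 100 bp of the summit, 3 within 50 bp and 5 within 150 bp. Shares over all summits were not counted for a motif of any kind, or for the windows of 50 and 150 bp. For Motif 1 or its core the counts were 2, 1 and 2, and 2 with up to 1 mismatch, a setting added after seeing the data. No paired analysis was possible because there is 1 group. Unknown read depth limits what an absent or weak entry in 1 replicate shows.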

Other observations

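Of the 12 other mitochondrial genes without a thresholded entry, all 12 had an entry in at least 1 relaxed list and 3 reached the 4598 strongest of a single replicate. Of the 8831 protein-coding genes without a thresholded entry, 71.7% had an entry in at least 1 relaxed list and 10.8% were among the strongest of at least 1 replicate. Fis1, the fission adaptor gene, ranked 3785 in replicate 1 and 14714 in replicate 3 and was not listed in replicate 2. The F-box gene ntc ranked 4343, 4872 and 11762 in replicates 1, 2 and 3. For dj-1beta the ranks were 5816 and 4572 in replicates 1 and 2, with no entry in replicate 3. At 5 of the 12 (DJ-1alpha, Fis1, Tim23, Tom20 and Usp14) replicate 2 listed no entry, as at 56.0% of those 8831 genes.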
